A study of Mus musculus with 50 samples.

Results

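Limb patterning transcription factors are described here through 10 genes, Msx1, Msx2, Dlx5, Dlx6, Hoxa13, Hoxd13, Hoxd12, Lmx1b, Pitx1 and Tbx4, which were taken by name from a fixed list and not by their values, out of 21954 genes in the tables. Their RNA was measured by RNA-seq in the wound beds of 41 amputated mouse digits. The digits were the digit 3 of the hindlimb of male C57Bl/6 mice aged 9 to 10 weeks, cut through the distal phalanx (P3) on both sides, and each library holds polyadenylated RNA from the mixed cells of 1 wound bed. The 29 non-regenerative (NR) digits carried amputation levels of 60 to 80% of P3 in their labels and were sampled at 0, 3, 6, 12 and 24 h and at 3, 14 and 21 d with 3 digits each, and at 7 d with 5 digits. The 12 intermediate digits, called Medium in the labels, carried levels of 41 to 55% and were sampled at 0 h, 24 h, 14 d and 21 d with 3 digits each. The nominal limit of the NR group is 67%, and 12 of the 29 NR digits were labelled at or below it. The labels give each digit an animal mark, a date and a side but do not say which digits came from the same mouse, so p-values measure the spread between digits. At 14 d, NR replicate 3 and intermediate replicate 1 carry the same mark, date and side. So do NR replicate 1 of 0 h and NR replicate 3 of 12 h, which are compared below. Intermediate replicates 2 and 3 of 0 h share theirs with NR replicates 1 and 2 of 12 h, respectively. NR replicate 3 of 3 d and NR replicate 1 of 7 d also share theirs. Whether the digits of these pairs are independent could not be settled.

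These proteins bind DNA and set the identity of limb cells along the axes of the bud. Msx1 and Msx2 are homeodomain repressors that respond to bone morphogenetic protein (BMP) and are known from the nail bed and the tip of the digit, while Dlx5 and Dlx6 are neighbouring homeobox genes of the ectodermal ridge, the epidermis and bone-forming cells. Hoxa13, Hoxd13 and Hoxd12 specify the most distal segment, Lmx1b gives dorsal identity and is needed for nails, and Pitx1 and Tbx4 mark the hindlimb, where Tbx5 marks the forelimb.

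Several of the genes are paralogs, and reads of 65 bases could be shared between them. The longest run of bases common to the coding sequences of Msx1 and Msx2 was 22 bases, and that of Dlx5 and Dlx6 was 14 bases. The stretches around these runs are shown because the counts of each pair rest on telling them apart, and the capitals mark the shared run. They are GRCm38 coding sequences of GENCODE transcripts, written 5′ to 3′ with 20 bases on each side.
Msx1: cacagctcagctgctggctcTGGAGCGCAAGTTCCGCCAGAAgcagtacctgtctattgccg
Msx2: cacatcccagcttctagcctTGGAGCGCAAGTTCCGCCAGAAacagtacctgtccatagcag
Dlx5: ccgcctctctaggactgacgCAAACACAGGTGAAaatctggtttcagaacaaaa
Dlx6: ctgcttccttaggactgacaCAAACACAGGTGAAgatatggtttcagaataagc
No window of 65 bases of one transcript matched the other within 2 mismatches in the pairs Msx1 with Msx2, Dlx5 with Dlx6, Hoxa13 with Hoxd13 and Hoxd12 with Hoxd13. Dlx6 (chr6:6863334-6868568, plus strand) overlaps the antisense genes Dlx6os1 and Dlx6os2, which the tables do not list. Lmx1b (chr2:33560965-33640511, minus strand) overlaps Gm38011 on the other strand, and Pitx1 (chr13:55825051-55836192, minus strand) overlaps Gm47071 on the other and Gm28760 on the same strand. The counting is not stated to use strand, so reads of these genes and of their antisense partners cannot be told apart, and reads where Gm28760 overlaps Pitx1 cannot be assigned by strand.

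RefSeq promoter windows (GRCm38.p6) were found for 7 of the 10 genes, and the 250 bases before the start were searched on both strands for TATAAA, for GGGCGG (a GC box) and for GGCGCC (the core of a BMP-responsive element). Of 32851 promoter windows, 12.368% held TATAAA, 32.742% held GGGCGG and 9.586% held GGCGCC. Hoxd13 was the member whose window held all 3 motifs, and Msx1 held a single GGGCGG on the opposite strand. Hoxd13, Msx1 and Hoxa13 passed the threshold in a test of intermediate digits, and the windows of Hoxd13 and Msx1 are shown as examples. The capitals mark the motifs, which overlap one another in the Hoxd13 window.
Hoxd13, chr2:74667975-74668224, plus strand: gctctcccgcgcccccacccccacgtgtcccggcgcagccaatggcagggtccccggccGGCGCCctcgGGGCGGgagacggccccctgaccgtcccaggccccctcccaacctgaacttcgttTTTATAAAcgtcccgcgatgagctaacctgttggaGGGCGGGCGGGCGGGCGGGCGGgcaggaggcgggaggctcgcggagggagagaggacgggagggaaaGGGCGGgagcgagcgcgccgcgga
Msx1, chr5:37824586-37824835, minus strand: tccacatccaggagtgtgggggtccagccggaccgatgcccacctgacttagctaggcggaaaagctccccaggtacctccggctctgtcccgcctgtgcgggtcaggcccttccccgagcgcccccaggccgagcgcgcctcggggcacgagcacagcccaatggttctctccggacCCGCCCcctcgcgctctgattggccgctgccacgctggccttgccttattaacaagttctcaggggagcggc
GGGCGG occurred 5 times in the window of Hoxa13 and once in those of Msx2 and Tbx4, TATAAA occurred once in that of Tbx4, and the windows of Lmx1b and Hoxd12 held none of the 3 motifs. The GC content was 74.4% for Hoxd13 and 68.0% for Msx1, beside a median of 52.4% over all windows.

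The digits held between 1468749 and 13011782 expected counts. One NR digit at 14 d and one at 7 d stood apart from the rest, with median Spearman correlations of 0.634 and 0.687 with the other digits. The normalized TPM of the 14 d digit summed to 3362791 and those of the 7 d digit to 1434851, above every other digit. In the 7 d digit every member was at 0 except Dlx5 with 403 counts and Tbx4 with 1 count. Label dates fell into an earlier period with 24 digits and a later one with 17. Every wound bed expressed epidermal genes, with a summed level of 8 keratinocyte markers of at least 26366 normalized TPM, and the summed level of 8 fibroblast markers ran from 630 to 24004. Of 8 skeletal muscle markers, Myh4, Myh1 and Pvalb were at 0 in most digits. Fewer cells of a type and less RNA per cell cannot be told apart in these libraries.

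Levels are given as the deposited normalized TPM, a measure per transcript length that was also scaled between libraries. Dlx5 had the highest level, with a median of 40.4 over 41 digits (lowest 20.2, highest 121). The 121 came from the 14 d digit that stood apart. Dlx5 was the highest member in 40 of 41 digits. It was followed by Msx1 with a median of 5.92, Hoxd13 with 5.58, Msx2 with 4.97 and Dlx6 with 4.80. These genes could not be ordered beyond their spread, since the digits of Msx1 ran from 0 to 31.5 and those of Dlx6 from 0 to 14.5. Hoxa13 had a median of 2.998, Tbx4 1.97, Pitx1 1.23 and Lmx1b 0.811, and neighbours in this order overlapped over most of their range. Hoxd12 was last. It had no count in 34 digits and 1 to 8 counts in the other 7, so it was not testable, and a count of 0 allows up to 3 counts, or 0.231 to 2.04 CPM (counts scaled to the library total) depending on the digit. Tbx5, the forelimb counterpart of Tbx4, had a median of 0.608 and a highest value of 4.30.

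**Figure D1:**
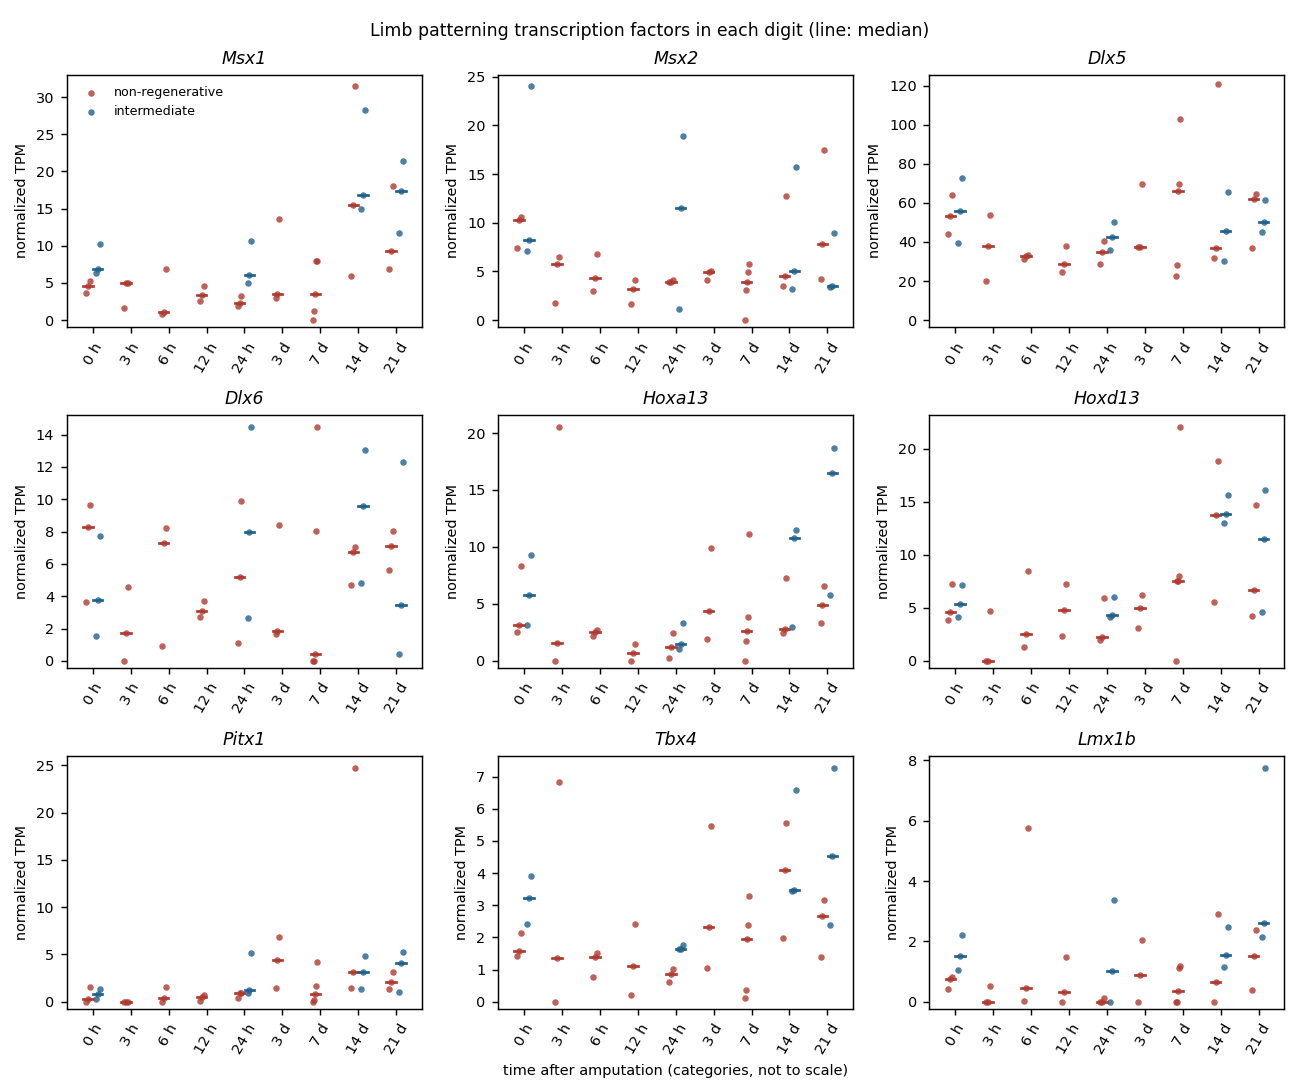
Normalized TPM of 9 members (y axis) in each digit against time after amputation (x axis, categories), with non-regenerative digits in red, intermediate digits in blue and lines at the median of each group. Msx1 reached its highest levels at 14 and 21 d in both groups, and Msx2 in non-regenerative digits was lower at 12 and 24 h than at 0 h.

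Over the 9 time points of NR digits no member changed by edgeR's quasi-likelihood test. None of the 9 members tested passed an adjusted p of 0.05, against 7.62% of 14434 genes, and 1 of them, Pitx1, had an unadjusted p under 0.05, as did 22.3% of all genes. DESeq2 called 2 of them, Msx1 and Pitx1, where it called 4406 of 14434 genes. Against the NR digits of 0 h, 3 of 61 tests of a member at a later time passed the adjusted p with a more than 2-fold change, where 3.53% of all gene tests did. These were Msx2 at 12 and 24 h and Dlx6 at 12 h, and each was lower than at 0 h. Over the 4 time points of intermediate digits Msx1 and Hoxa13 changed, which was 2 of 9 members against 6.21% of 14004 genes. Against intermediate digits of 0 h, 1 of 27 tests passed, Hoxd13 at 14 d, which was higher, where 1.03% of all gene tests did. In a fit of all 41 digits together, no member passed in any comparison with 0 h. That fit called 421 of 14996 genes at 12 h and 331 at 24 h in NR digits, beside 1491 of 13075 and 1437 of 13420 in the pairwise fits. At 14 d it called 56 in intermediate digits, beside 224 of 13334, and 731 in NR digits, beside 0 of 13567.

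Msx2 fell early in NR digits. Its normalized TPM was 10.3, 7.41 and 10.6 at 0 h, 1.69, 4.15 and 3.21 at 12 h, and 3.86, 3.93 and 4.11 at 24 h. All digits of 12 and 24 h lay below all digits of 0 h. In CPM with TMM scaling the mean was 13.4 ± 2.31 (SD, n = 3) at 0 h, 4.34 ± 1.77 at 12 h and 5.92 ± 0.174 at 24 h. The log2 change was -1.59 (SE 0.38, edgeR adjusted p = 0.0241) at 12 h and -1.18 (SE 0.28, adjusted p = 0.0237) at 24 h. Of the genes tested, 4.64% were called lower at 12 h and 5.14% at 24 h. At 3 h, 6 h and 3 d Msx2 did not pass, with log2 changes of -1.19 (SE 0.56, adjusted p = 0.483), -0.97 (SE 0.35, adjusted p = 0.136) and -0.97 (SE 0.30, adjusted p = 0.242).

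At 12 and 24 h every member that could be tested in NR digits had a log2 change from 0 h below 0, 7 of 7 at each time. Their median log2 change was -0.77 at 12 h and -0.83 at 24 h, beside -0.03 and -0.04 over all genes tested. Of these 14 differences, 3 passed, and Hoxa13 had the lowest log2 change at 24 h that did not, -1.84 (SE 0.80, edgeR adjusted p = 0.150).

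The Msx2 calls rested on few digits. The call at 12 h was lost without replicate 2 or 3 of 0 h or replicate 3 of 12 h, with adjusted p up to 0.0949, and the call at 24 h without replicate 3 of 0 h or replicate 1 or 2 of 24 h, with adjusted p up to 0.110. All 12 h digits belong to the earlier label dates, and within those dates Msx2 was 10.3 at 0 h in 1 digit and 1.69 to 4.15 at 12 h. With the date period as a term in a fit of all digits, the log2 change at 12 h was -1.31. The summed level of 8 neutrophil markers was 19.4 to 24.7 at 0 h and 387 to 1083 at 12 h, and that of 8 fibroblast markers was 1605 to 2871 and 908 to 1627. The keratinocyte sum was 32149 to 64558 at 0 h and 29933 to 36562 at 12 h. The part of these cell types in the Msx2 difference was not tested.

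In intermediate digits Msx2 varied more between digits than between times. Its normalized TPM was 24.03, 7.07 and 8.23 at 0 h, 1.18, 18.9 and 11.5 at 24 h, 15.8, 5.06 and 3.21 at 14 d, and 3.40, 8.97 and 3.48 at 21 d. The groups overlapped at every time, and the time course had an edgeR adjusted p of 0.644. The 4 digits of the later label dates had 11.5 to 24.03 and the 8 of the earlier dates had 1.18 to 8.97, so the periods did not overlap in this group. In NR digits the 2 periods overlapped, with medians of 4.13 and 4.97.

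Msx1 was high late. In NR digits its normalized TPM was 5.25, 4.65 and 3.70 at 0 h, 1.86, 2.27 and 3.29 at 24 h, and 13.6, 2.93 and 3.52 at 3 d. At 7 d it was 7.90, 0, 3.55, 7.92 and 1.19, at 14 d 15.5, 31.5 and 5.92, and at 21 d 18.0, 9.33 and 6.93. The 6 digits of 14 and 21 d had a median of 12.4 and overlapped the 15 digits of the first 24 h, whose highest value was 6.88, in 1 digit. The 31.5 came from the 14 d digit that stood apart from the rest. The log2 change from 0 h was 1.60 at 14 d (SE 0.61, edgeR adjusted p = 0.608) and 1.34 at 21 d (SE 0.40, adjusted p = 0.399), so neither passed.

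In intermediate digits Msx1 was 6.31, 6.90 and 10.2 at 0 h, 4.94, 6.09 and 10.7 at 24 h, 14.9, 28.3 and 16.8 at 14 d, and 17.4, 11.7 and 21.4 at 21 d. All 6 late digits lay above all 6 early ones. The time course passed with an edgeR adjusted p of 0.0439, while the pairwise changes from 0 h were 1.35 at 14 d (SE 0.33, adjusted p = 0.0930) and 1.10 at 21 d (SE 0.30, adjusted p = 0.118). Without replicate 1 of 14 d the 14 d change was 1.54 and passed (adjusted p = 0.0482). That fit called 393 of 13702 genes, beside 224 of 13334 with all digits. The call of the time course was kept without replicate 3 of 0 h, replicate 3 of 24 h, replicate 1 of 14 d or replicate 2 of 21 d. It was lost without any other single digit, with adjusted p up to 0.101, and it was also lost with the date period as a term, with an adjusted p of 0.0832. The fibroblast sum of intermediate digits ran from 1245 to 4348 at 0 and 24 h and from 7267 to 19893 at 14 and 21 d, and its part in the Msx1 level was not tested.

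Dlx5 had no call at any time. In NR digits its normalized TPM was 43.9, 64.2 and 53.5 at 0 h, 37.7, 28.9 and 24.6 at 12 h, and 28.7, 40.4 and 34.9 at 24 h. The digits of 12 and 24 h lay below those of 0 h, with log2 changes of -0.77 (SE 0.23, edgeR adjusted p = 0.0509) and -0.56 (SE 0.22, adjusted p = 0.109). At 7 d its digits ran from 22.5 to 103, the last from the digit that stood apart. At 14 and 21 d it ran from 31.8 to 121 in NR and from 30.0 to 65.5 in intermediate digits. The 121 came from the 14 d digit that stood apart. In TMM-scaled CPM Dlx5 was 58.2 in that digit and 81.1 in the 7 d digit that stood apart.

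Dlx6 was 3.67, 8.30 and 9.66 at 0 h and 2.73, 3.09 and 3.73 at 12 h in NR digits. The groups overlapped by the digit of 0 h with 3.67, and in TMM-scaled CPM the means were 9.18 ± 4.09 (SD, n = 3) and 2.97 ± 0.794. The log2 change was -1.63 (SE 0.47, edgeR adjusted p = 0.0468). The call was kept only without replicate 1 of 0 h, and the other 5 fits that left out 1 digit gave adjusted p up to 0.180. In intermediate digits Dlx6 was 7.73, 1.55 and 3.75 at 0 h, 2.63, 7.9998 and 14.5 at 24 h, 13.1, 4.80 and 9.60 at 14 d, and 12.3, 0.422 and 3.45 at 21 d, with overlap between all times. With the date period as a term the NR change at 12 h was -0.15. The low digit of 0 h and all digits of 12 h were of the earlier dates and the 2 high digits of 0 h were of the later ones.

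**Figure D2:**
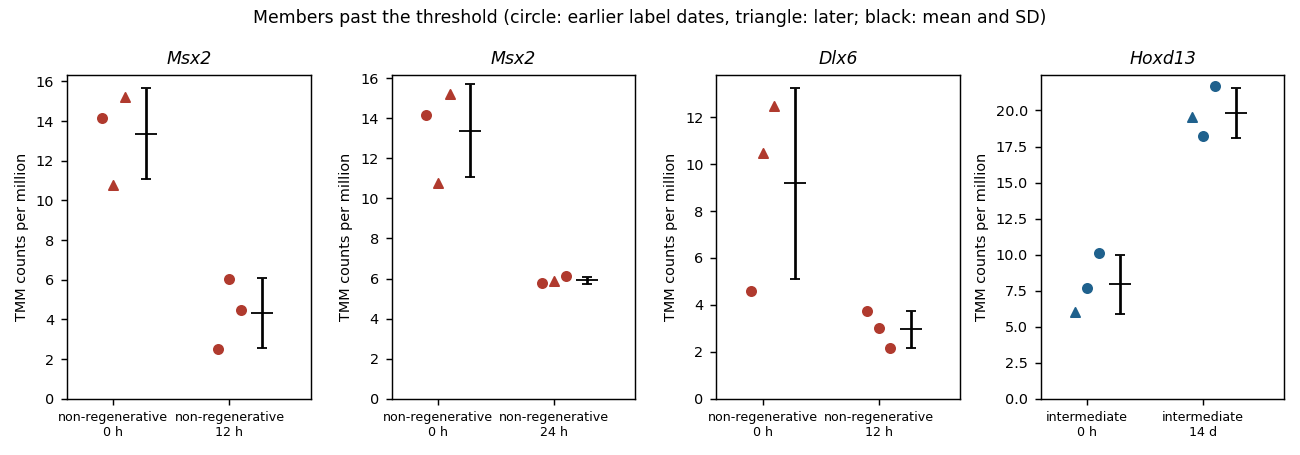
TMM-scaled CPM (y axis) of the members past the threshold against 0 h, with 3 digits per group as points and the mean and SD beside them in black. Circles are digits of the earlier label dates and triangles of the later dates, and for Dlx6 the circle of 0 h, at 4.60, is close to the 12 h digits.

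Dlx5 and Dlx6 differed with the label date. The normalized TPM of Dlx6 had a median of 2.30 in the 16 earlier NR digits and 8.05 in the 13 later ones, and a median of 3.60 in the 8 earlier and 10.5 in the 4 later intermediate digits. For Dlx5 the medians were 34.1 and 64.2 in NR digits and 45.5 and 57.8 in intermediate digits. The periods overlapped for both genes. In a fit with a mean for each group and time point, chosen after seeing the data, later digits were higher by 2.10 (log2, SE 0.50, edgeR adjusted p = 0.00574) for Dlx6 and by 0.69 (SE 0.17, adjusted p = 0.00738) for Dlx5. The other 7 members tested were not called, beside 8.23% of 14996 genes called in either direction and 5.14% called higher in later digits. The share of Dlx6 in the summed counts of both genes was 0 to 16.1% in earlier digits, with a median of 8.64%, and 0 to 30.9% in later ones, with a median of 19.3%.

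**Figure D3:**
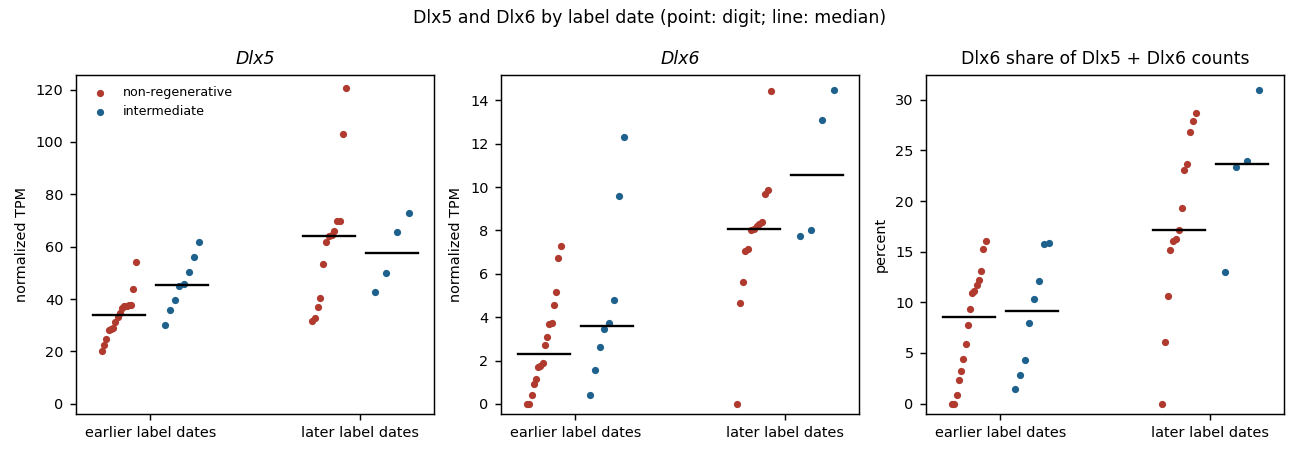
Normalized TPM of Dlx5 and Dlx6 and the percent of Dlx6 in their summed counts (y axes) for digits of the earlier and later label dates (x axis), with a point per digit, red for non-regenerative and blue for intermediate, and lines at the medians. The median of Dlx6 in non-regenerative digits was 2.30 in earlier and 8.05 in later digits.

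Hoxd13 was higher late in intermediate digits. Its normalized TPM was 4.18, 5.33 and 7.14 at 0 h, 4.29, 4.12 and 5.98 at 24 h, 13.9, 13.04 and 15.6 at 14 d, and 16.1, 4.64 and 11.5 at 21 d. The 14 d digits lay above all digits of 0 and 24 h. TMM-scaled CPM were 7.94 ± 2.06 (SD, n = 3) at 0 h and 19.8 ± 1.74 at 14 d, a log2 change of 1.34 (SE 0.27, edgeR adjusted p = 0.0479), in a comparison that called 1.49% of genes higher. The call was kept only without replicate 3 of 0 h, and the other 5 fits that left out 1 digit gave adjusted p up to 0.232, with log2 changes of 1.16 to 1.55 over all 6. The summed level of 10 osteoblast and osteocyte markers in intermediate digits was 76.1 to 166 at 0 h and 769 to 1767 at 14 d, and that of 8 fibroblast markers was 1486 to 4348 and 7267 to 19893. Their part in the Hoxd13 difference was not tested. Over the whole intermediate time course the adjusted p of Hoxd13 was 0.0577, and 0.0118 without replicate 2 of 21 d. In NR digits the highest Hoxd13 value, 22.04, was at 7 d, where the digits ran from 0. It was 7.23, 3.87 and 4.58 at 0 h and 13.8, 5.58 and 18.9 at 14 d, and without the 14 d digit that stood apart the log2 change was 1.62 (SE 0.34, adjusted p = 0.0768).

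Hoxa13 changed over the intermediate time course, with an edgeR adjusted p of 0.0340. Its normalized TPM was 3.12, 5.74 and 9.30 at 0 h, 1.45, 1.06 and 3.301 at 24 h, 2.998, 10.8 and 11.5 at 14 d, and 18.7, 5.82 and 16.5 at 21 d. In this unit the digits of 24 h lay below those of 21 d, and all other pairs of times overlapped. In TMM-scaled CPM the digits of 24 h, at 1.45 to 2.23, lay below those of every other time. Those of 0 h, at 2.86 to 6.19, also lay below those of 21 d, at 7.31 to 10.7. The call was kept without replicate 3 of 0 h or replicate 1 of 14 d and lost without any other single digit, with adjusted p up to 0.0940, and with the date period as a term it was lost with an adjusted p of 0.1196. In NR digits Hoxa13 was 8.36, 3.12 and 2.51 at 0 h, 0, 1.47 and 0.692 at 12 h, and 4.91, 3.32 and 6.61 at 21 d. The same 15 counts of Hoxa13 gave a normalized TPM of 20.5 in 1 digit of 3 h and 1.47 in 1 digit of 12 h. These libraries held 1468749 and 7502951 expected counts, and in TMM-scaled CPM the values were 9.29 and 1.97.

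Hoxd12, which neighbours Hoxd13 on chromosome 2, was seen in all 3 NR digits of 14 d with 1, 8 and 2 counts and in 1 of 21 d with 1 count. In intermediate digits it had 3 and 4 counts in 2 digits of 0 h and 2 counts in 1 digit of 14 d.

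Pitx1 and Tbx4, the hindlimb genes, were low. Pitx1 had a median of 0.341 in the 15 NR digits of the first 24 h (lowest 0, highest 1.58), and was 1.48, 6.81 and 4.46 at 3 d, 0 to 4.20 with a median of 0.818 at 7 d, 1.41, 24.8 and 3.14 at 14 d, and 2.05, 3.13 and 1.37 at 21 d. The 24.8 belonged to the 14 d digit that stood apart. The edgeR adjusted p over the NR time course was 0.0965, and it was 0.0397 without the 7 d digit that stood apart and 0.0873 without both digits. The fit without the 7 d digit called 2073 of 14536 genes, beside 1100 of 14434 with all digits. In intermediate digits Pitx1 was 0.778, 0.278 and 1.34 at 0 h and 4.12, 1.03 and 5.26 at 21 d, and the groups overlapped. Tbx4 had 1.43, 2.13 and 1.58 at 0 h, 1.0106, 0.863 and 0.606 at 24 h, 4.09, 5.55 and 1.97 at 14 d, and 3.17, 1.39 and 2.67 at 21 d in NR digits. In intermediate digits Tbx4 was 3.22, 2.42 and 3.91 at 0 h, 1.75, 1.63 and 1.65 at 24 h, 3.43, 3.48 and 6.58 at 14 d, and 4.52, 2.38 and 7.27 at 21 d. The lowest values of both groups at these times were those of 24 h, and the adjusted p over time was 0.904 in NR and 0.173 in intermediate digits.

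Lmx1b was near the limit of detection, with no count in 10 digits and a highest value of 43 counts. In NR digits its normalized TPM was 0.811, 0.739 and 0.412 at 0 h, 0, 0.136 and 0 at 24 h, and 2.37, 1.53 and 0.381 at 21 d. In this unit the digits of 24 h lay below those of 0 h and 21 d. The lowest count at 0 h and the highest count at 24 h were both 1. In TMM-scaled CPM the digits of 24 h overlapped those of 0 h and still lay below those of 21 d. Its normalized TPM in intermediate digits was 1.066, 1.499 and 2.20 at 0 h, 0, 3.36 and 1.03 at 24 h, and 7.75, 2.15 and 2.60 at 21 d. The log2 change from 0 h to 21 d was 1.79 (SE 0.53, edgeR adjusted p = 0.136).

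Intermediate and NR digits were compared at the same time and over the 4 shared times. At 0 h the normalized TPM of Msx1, Tbx4 and Lmx1b was higher in every intermediate digit than in any NR digit, which is 3 of 8 members with a mean of at least 1, against 5.07% of 13533 such genes. Msx1 was 6.31 to 10.2 in intermediate and 3.70 to 5.25 in NR digits, Tbx4 was 2.42 to 3.91 and 1.43 to 2.13, and Lmx1b was 1.066 to 2.20 and 0.412 to 0.811. At 24 h this held for Msx1 and Tbx4, 2 of 8 members, against 8.61% of genes, with 4.94 to 10.7 and 1.86 to 3.29 for Msx1 and 1.63 to 1.75 and 0.606 to 1.0106 for Tbx4. At 14 and 21 d no member separated the groups in this unit, where 3.24% and 10.9% of genes were higher in every intermediate digit. The unit mattered for Lmx1b and Pitx1. In TMM-scaled CPM Msx1 and Tbx4 again separated at 0 and 24 h, but Lmx1b overlapped at 0 h and separated at 21 d, with 3.29 to 5.57 in intermediate and 1.06 to 2.95 in NR digits, and Pitx1 separated at 24 h. That made 2 of 9, 3 of 8, 0 of 9 and 1 of 9 members at 0 h, 24 h, 14 d and 21 d, against 5.50%, 8.66%, 4.06% and 9.16% of genes. At 21 d every intermediate digit was of the earlier label dates and every NR digit of the later ones. Group and date period therefore cannot be told apart at that time. The summed level of 8 nail and hair keratins also separated the groups at 24 h, with 1642 to 5685 in intermediate and 968 to 1504 in NR digits, and overlapped at 0 h, with 1320 to 4457 and 194 to 5234, and its part in these differences was not tested.

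No member passed edgeR's test at any of the 4 times. No gene at all passed at 0 h, 24 h or 14 d. At 21 d, where group and date period cannot be told apart, 89 of 13736 genes did, which made 0.166% of the gene tests of all 4 times. Of 33 member tests 3 had an unadjusted p under 0.05, DESeq2 called 0, and the smallest adjusted p was 0.341, for Msx1 at 24 h with a log2 difference of 1.55 (SE 0.45). Among all genes 491 of 13500 had an unadjusted p under 0.05 at 0 h and 1472 of 13024 at 24 h. At 14 d 270 of 13421 did, and at 21 d 1927 of 13736. Without replicate 1 of the intermediate digits of 24 h, Msx2 (log2 difference 1.89, adjusted p = 0.0122) and Lmx1b (adjusted p = 0.0467, with a single count over the 3 NR digits) passed. That fit called 653 of 13670 genes, where the comparison with all digits called 0 of 13024. With the time points in 1 fit, the differences of intermediate from NR digits were 0.81 (log2, SE 0.23) for Msx1, 0.81 (SE 0.22) for Tbx4, 0.85 (SE 0.31) for Hoxa13 and 1.32 (SE 0.61) for Lmx1b. These 4 members had an unadjusted p under 0.05, and the edgeR adjusted p of each was 0.777. No gene of 14249 passed, 5.98% had an unadjusted p under 0.05, and DESeq2 called 0. The median difference of the 9 members tested was 0.38, beside -0.02 over all genes, and 8 of 9 were higher in intermediate digits. With the date period as a term the differences were 0.84 for Msx1 and 0.77 for Tbx4. With the label date as a block, chosen after seeing the data, they were 0.83 (SE 0.33) and 0.74 (SE 0.34), the adjusted p of each member was 0.999, and no gene passed.

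The change over time was not shown to differ between the groups for any member. The adjusted p of the group by time term was 0.686 or more for all 9 members by edgeR, no gene of 14768 passed, 7.10% had an unadjusted p under 0.05, and DESeq2 called 3 genes and no member.

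Against the labelled amputation level, with the time point as the other term, the slope per 10 percentage points was negative for 7 of 9 members. It was -0.40 (log2, SE 0.16, edgeR adjusted p = 0.499) for Msx1 and -0.76 (SE 0.34, adjusted p = 0.577) for Lmx1b, and for Dlx5 it was -0.05 (SE 0.08). No gene of 14996 passed, 8.30% had an unadjusted p under 0.05, and DESeq2 called 10 genes and no member. The median slope of the 9 members was -0.12, beside 0.00 over all genes. The slope of Msx1 was -0.50 (SE 0.13, adjusted p = 0.381) without the 2 digits that stood apart, -0.31 (SE 0.17) with the date period as a term, -0.49 (SE 0.33) among digits of the same group and time, and -0.78 (SE 0.43) in NR digits alone. Those of Tbx4 and Hoxa13, -0.22 and -0.27 over all digits, were 0.31 and 0.21 among digits of the same group and time.

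**Figure D4:**
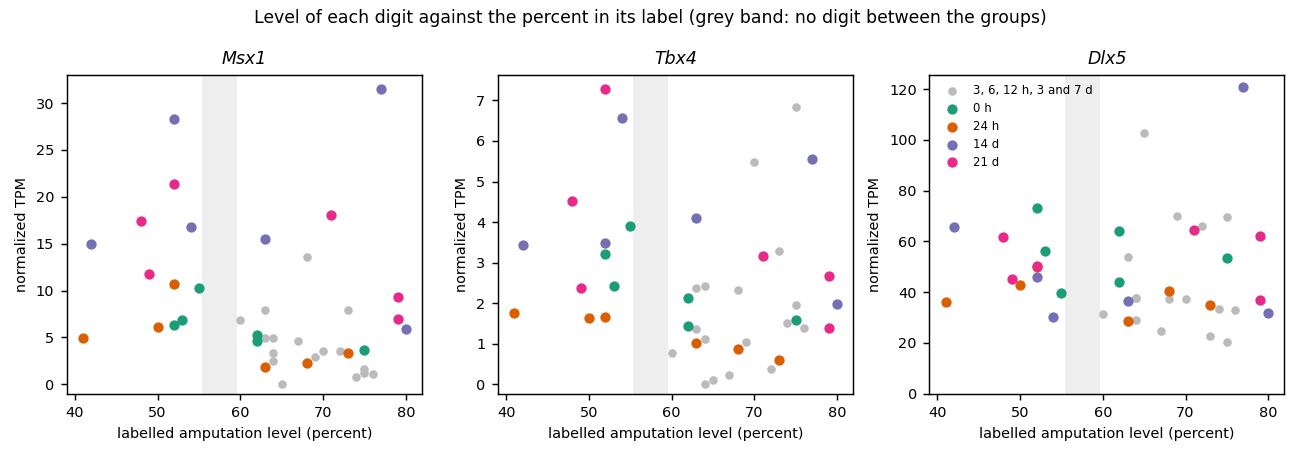
Normalized TPM of Msx1, Tbx4 and Dlx5 (y axis) in each of 41 digits against the amputation level in its label (x axis, percent of P3), coloured by time, with a grey band where no digit lies between the groups. Within 0 h and within 24 h the Msx1 and Tbx4 values of digits labelled 41 to 55% lie above those labelled 62 to 75%, and those of Dlx5 overlap.

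Of 56 other limb transcription factors fixed as a list, 47 were tested over the NR time course and 3 passed, Tbx15, Ldb1 and Prrx2, against the 7.62% of all genes. Tbx15, a T-box factor of limb mesenchyme, was 29.1 to 35.0 at 0 h, 8.87 to 24.2 at 12 h, 14.7 to 16.6 at 24 h and 34.0 to 83.8 at 7 d (edgeR adjusted p = 0.00977). Ldb1, the cofactor of LIM homeodomain proteins such as Lmx1b, was 117 to 128 at 0 h, 39.8 to 69.5 at 12 h and 64.0 to 79.9 at 24 h (adjusted p = 0.0107). Prrx2 had an adjusted p of 0.0139, and Hoxa9 and Osr2, with 0.0650 and 0.0780, did not pass. Against 0 h, 12 of 335 tests in NR digits passed, all 12 lower and in 10 genes, beside 3.53% of all gene tests. Over the intermediate time course 6 of 45 passed, against 6.21% of 14004 genes. With the date period as a term 3 of 46 did, where 704 of 14443 genes were called. Against 0 h, 2 of 133 tests in intermediate digits passed, beside 1.03%, and both were of Prrx1. This factor of limb mesenchyme, named after its values were seen, was higher at 14 and 21 d. Between intermediate and NR digits 0 of 177 passed by edgeR, with 17 at an unadjusted p under 0.05, beside the counts of all genes given above for each time. None passed against the amputation level, where the smallest adjusted p, 0.478, was shared by Irx3 (slope 0.30), Hoxc13 (-0.39) and Tbx2 (-0.57), and En1 (0.37) followed with 0.515.

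Of 18 genes of the BMP pathway, which acts upstream of Msx1 and Msx2, 1 passed over the NR time course, where 7.62% of all genes did. This was Id4, an inhibitor of basic helix-loop-helix factors, with 36.2 to 59.2 at 0 h, 11.6 to 28.9 at 12 h and 12.2 to 15.6 at 24 h (edgeR adjusted p = 0.0311). Its log2 change was -1.23 (SE 0.34) at 12 h and -1.75 (SE 0.24) at 24 h. Id3, another inhibitor of this family, and Grem1, a BMP antagonist, had adjusted p-values of 0.163 and 0.183. In intermediate digits Bmpr1a, a BMP receptor, passed over time (adjusted p = 0.0469) and was named after its value was seen.

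The members fell into loose sets across the 41 digits. Among genes with a mean of at least 1 normalized TPM, Spearman's rho was 0.77 between Hoxa13 and Tbx4, 0.75 between Msx1 and Lmx1b, 0.63 between Msx1 and Hoxa13 and 0.62 between Msx1 and Hoxd13. Between Dlx5 and Dlx6 it was 0.41, between Msx1 and Msx2 0.31, and between Dlx5 and Hoxd13 -0.09. The digits share time points, dates and cell mixture, and these values are a description. The 3 genes most like Msx1 of 13691 were Ogn (rho 0.88), Nuak1 (0.87) and Chrdl1 (0.86), the last a BMP antagonist. Hoxa13 was most like Nrp1 (0.86), Colec12 (0.84) and Olfml2a (0.84), and Hoxd13 most like Ptprm (0.86), Rnf144a (0.84) and C1ra (0.84). Tbx4 was most like Nfic (0.80), Pth1r (0.79) and Scara3 (0.79). Lmx1b was most like Msx1 (0.75), Hoxc13 (0.74) and the hair keratin Krt82 (0.72), and Pitx1 most like Susd2, Galnt10 and C1ra (each 0.71). Msx2 was most like Rspo4 (0.69), Wbp2 (0.69) and Gm9789 (0.68), Dlx6 most like Pabpn1 (0.71), Ykt6 (0.71) and Taf3 (0.69), and Dlx5 most like Hist2h2be (0.77), Mycl (0.76) and Ankrd27 (0.75).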

How the data were processed

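The authors processed the reads with CASAVA and RSEM 1.2.3 against mm10 (GRCm38), per the labels, and deposited an expected count for each gene, not normalized. The second deposited unit is a signal, normalized TPM, in which the authors scaled TPM values by the median-by-ratio method. Dates stood in place of 26 gene names in the deposited digit files, and the names were restored. Members and lists were chosen with earlier results of these data known.

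Expected counts were rounded and tested with edgeR 4.0.16 in R 4.3.3 (filterByExpr, TMM, glmQLFit, glmQLFTest), on the digits of the comparison, with Benjamini-Hochberg adjustment over all genes tested. Pairwise calls needed an adjusted p under 0.05 and over 2-fold between group means (of normalized counts, with 1 added). Time courses were tested over all times together, and the amputation level as a slope with the time point as a factor. SE is the log2 change divided by the square root of F. The study used EBSeq with the same fold limit, which was not used here. Levels are described in normalized TPM.

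Named genes were all members, up to 5 of 56 other limb factors with the smallest adjusted p in the NR time course and for the amputation level, up to 3 of 18 BMP genes in the NR time course, and the 3 genes with the highest Spearman rho to each member with a mean of at least 1. Others are named where a count was small, and 1 gene that the rule names is not reported here. Alternatives were DESeq2 1.42.0 as a test and for size factors, no filter, no fold limit, all digits in 1 fit, the date period as a term, the label date as a block, and leaving out each digit. On simulated counts for the comparison of 12 h with 0 h, 95.0% of 200 genes changed by 2 on the log2 scale were recovered among 13128 genes. The changed genes were drawn only from genes with higher counts, and the dispersion was fixed. This share therefore does not describe members with low counts or smaller changes. Intervals and floors cover counting error only. Macrophage libraries were not tested.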

Additional observations from a re-analysis of the deposited data

Results flagged for a closer look

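Outside the digits, 9 libraries of bone marrow-derived macrophages were deposited, 3 unstimulated (M0), 3 M1 and 3 M2. The paper states that these cells came from female mice, which were younger than the male mice of the digits. M1 cells were treated with interferon gamma and lipopolysaccharide, and M2 cells with interleukin 4. The labels of the M0 libraries read baseline. In CPM, here counts scaled to the library total, 3 of the 5 members with more than 3 counts in every M2 library were higher in each M2 library than in any M0 library, as were 35.6% of 13302 genes with that many counts. Lmx1b, with 2 to 4 counts per M2 library, was also higher in each. Msx1 had 2.14 ± 0.305 (SD, n = 3) in M2 and 0.492 ± 0.286 in M0, with 46 to 64 expected counts per M2 library. Dlx5 had 2.58 ± 0.329 in M2 and 1.33 ± 0.197 in M0, and Pitx1 had 3.65 ± 0.343 and 2.41 ± 0.382. In M1 the same genes had 0.159 ± 0.0828, 0.143 ± 0.153 and 0.362 ± 0.229. These differences were not tested. The fibroblast marker Pdgfra moved with them, with 45.4 to 52.8 in M2, 20.2 to 29.05 in M0 and 2.81 to 3.62 in M1, and Col1a2 did too, with 1566 to 1746, 857 to 1248 and 276 to 324, while Dcn was highest in M1, with 12.5 to 15.4, 1.40 to 2.72 and 25.99 to 31.8. The part of fibroblast RNA in these values was not tested. Hoxa13, Hoxd13, Hoxd12, Lmx1b and Tbx4 had at most 5 expected counts in any macrophage library.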

How the results depend on the processing

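No paired analysis was possible because the labels of the digits carry no replicate numbers and do not say which digits share a mouse. They give an animal mark, a date and a side, but some digits of different groups have all of these in common. Labels share dates between the groups at every shared time except 21 d. A fit of the groups over 4 times with the label date as a block, chosen after seeing the data, had 5 dates with both groups among 10, and called 0 members. Member calls against 0 h in NR digits, 3 with the main settings, were 0 with all digits in 1 fit, with or without the date period. At 12 h these fits called 301 and 421 of 14996 genes, respectively, beside 1491 of 13075 with the main settings. Member calls against 0 h in intermediate digits, 1 with the main settings, were 0 with DESeq2 size factors. They were also 0 with all digits in 1 fit, with or without the date period, where 65 and 56 of 14996 genes were called at 14 d. With the DESeq2 test they were 3. The 3 were 2 at 14 d, where 507 of 13334 genes were called, and 1 at 21 d, where 413 of 13360 were. Member calls over the NR time course, 0 with the main settings, were 1 with DESeq2 size factors and 2 with the DESeq2 test. These settings called 2354 and 4406 of 14434 genes. Member calls over the intermediate time course, 2 with the main settings, were 0 with the date period. Leaving out 1 digit gave 0 to 3 calls against 0 h in NR digits, 0 to 1 in intermediate digits, 0 to 1 over the NR and 0 to 2 over the intermediate time course, 0 to 2 between the groups at the same time, and 0 throughout over 4 times, for the interaction and for the amputation level.

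The slope with the amputation level changed sign with DESeq2 size factors for Dlx5 (0.0025), with the date period for Dlx6 (-0.22) and Pitx1 (-0.27), in NR digits alone for Hoxa13 (0.12), Msx2 (0.29), Pitx1 (-0.059) and Tbx4 (0.28), among digits of the same group and time for Hoxa13 (0.21), Msx2 (0.17) and Tbx4 (0.31), without the 2 digits that stood apart for Pitx1 (-0.22), and over single digits left out for Msx2 (-0.16 to 0.095) and Pitx1 (-0.20 to 0.12). The difference of intermediate from NR digits over 4 times changed sign for Dlx6 with the date period (0.21) and with the label date as a block (0.18), and over single digits left out for Dlx5 (-0.017 to 0.15) and Pitx1 (-0.11 to 0.63). The cause was not tested. Without the 2 digits that stood apart, an alternative chosen after seeing the data, no count of member calls changed. Depth limits Hoxd12, Lmx1b and Pitx1 most.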
